A study of Drosophila pseudoobscura with 29 samples.

Results

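The gene promoters of XL, the arm of the X chromosome of the fly Drosophila pseudoobscura that has been part of the X throughout the genus, were followed through embryogenesis. A promoter is here a transcription start site cluster (TSC), a group of neighbouring start sites called together. A TSC was taken as an XL gene promoter when its interval lay on a scaffold whose name starts with XL and its identifier was that of an annotated gene. This gave 3204 of the 26066 TSCs of the series, assigned to 1649 genes. The same rule gave 10952 promoters on the autosomes 2, 3 and 4 and 3472 on XR, the other X arm. No TSC on chromosome 5 was among the intervals analysed here.

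Whole staged embryos of a single wild-type strain, the one used for the reference genome, were collected in population cages in windows of 1 h and aged, from 0-1 h to 28-29 h after egg laying. No treatment, mutation or transgene was involved, and the labels do not give the sex of the embryos. Promoter activity was measured by RAMPAGE, which sequences complementary DNA complete at its 5′ end, so that the start of a read marks the start of a transcript. There was 1 library per window, 28 of 29 were used, and differences between single windows therefore had no replicate check.

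In flies males carry a single X, and dosage compensation raises the output of genes on it in males. XL corresponds to the whole X chromosome of Drosophila melanogaster, whereas XR was an autosomal arm that joined the X in an ancestor of D. pseudoobscura. The RNA of the first hours is loaded into the egg by the mother, after which maternal RNA is degraded and the zygotic genome is switched on. Fly promoters range from broad ones, with start sites spread over many bases and often used by genes active in most cells, to narrow ones, often used by genes of a single tissue or stage.

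The deposited values are RPM, reads per 1000000 reads in TSCs of the same library. The libraries used held 723775 to 11862896 reads, and a single read was worth 0.0843 to 1.38 RPM, so a promoter with no read could have been present at up to 3 reads, which is 0.253 to 4.14 RPM. Depth was lower in later windows (Spearman rho with the hour -0.555, a description of the 28 libraries). Between 2081 and 2960 of the XL gene promoters had a read in each library. The 27-28 h library held 1011 reads, of which 115 (11.4%; 95% Wilson interval 9.56 to 13.5%) fell in XL gene promoters, and it was left out unless stated. The files do not pair gene identifiers with names, and the available annotation shares no identifier with them, so promoters are given by position in the r2.9 build, and neither gene functions nor markers of the embryonic stages could be examined. In whole embryos, fewer cells of a type and less RNA per cell cannot be told apart.

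Most XL genes had a single promoter, with 895 genes at 1 and 754 (45.7%) at 2 or more, the most being 25. On autosomes 38.3% of genes had 2 or more promoters and on XR 40.1%. A total of 86 XL promoters formed 43 intervals each listed for 2 genes, so those genes cannot be told apart. Of the 3204 promoters, 3139 reached 1 RPM in some window, 1869 reached 10 RPM, 674 reached 100 RPM and 63 reached 1000 RPM. The courses, peaks and widths below are those of the 1869, which belonged to 1372 genes. The other 1335 stayed under 10 RPM, and the threshold had 131 promoters between 8 and 10 RPM just under it and 98 between 10 and 12 RPM just over it. The share that reached 10 RPM was 58.3% on XL, against 60.4% on autosomes and 62.2% on XR.

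The time that XL promoters spent at 10 RPM or more differed widely, up to the whole series. Of the 1869 promoters, 488 (26.1%) were at 10 RPM or more in all 28 libraries, against 24.7% of autosomal and 23.8% of XR promoters. A further 397 (21.2%) were at that level in only 1 to 4 windows, against 20.8% and 20.2%. No read was found over the first 5 windows for 146 of the 1869 (7.81%), against 8.74% of autosomal and 11.0% of XR promoters. The reverse was rare, since 26 promoters (1.39%) had no read in the 4 libraries from 24-25 h on, against 1.65% and 1.44%. In all, 170 XL promoters (9.10%) were under 10 RPM in each of the first 5 windows and at or over it in each of the last 4 libraries, against 10.1% of autosomal and 12.2% of XR promoters. The opposite course was found for 37 (1.98%), against 2.45% and 2.41%. No test was made of these shares, since promoters are not replicates.

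Most XL gene promoters changed with time, at a share close to that of all TSCs. A smooth course, a natural cubic spline of the hour, was fitted with limma to log2(RPM + 1) of every TSC that reached 1 RPM in some window. At a Benjamini-Hochberg adjusted p of 0.05, its F-test called 2571 of 3139 XL gene promoters (81.9%). The background was 79.1% of the 25360 TSCs tested, with 83.3% of autosomal and 83.8% of XR gene promoters. The fitted value of the last window was above that of the first, here called higher, for 1151 XL promoters and below it, or lower, for 1420. In the background, 41.5% of the TSCs tested were called and ended higher, and 37.6% were called and ended lower. Among called promoters 44.8% ended higher on XL, against 49.1% on autosomes and 49.1% on XR. In a fit to recovered reads with edgeR, 1145 of 2056 called XL promoters ended higher and 911 lower, and with DESeq2 1416 of 2335 ended higher and 919 lower. A limma fit with upper-quartile scaling gave 1230 higher and 1212 lower. The majority direction on XL thus differed between fits, which are unlike in model as well as in scaling. The median change over all TSCs was 0.02 in limma, 0.53 in edgeR and 1.21 in DESeq2 on the log2 scale. Autosomal gene promoters (-0.06, 0.38 and 0.70) and XR ones (-0.06, 0.44 and 0.74) lay below it each time. XL lay below both, at -0.20, 0.21 and 0.40. The share of called promoters that ended higher was lower on XL than on autosomes and XR in the fit given here and in all 10 alternatives to it.

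Among the 1869 promoters that reached 10 RPM, 1748 (93.5%) were called, 730 higher and 1018 lower. In a separate fit limited to TSCs that reached 10 RPM, 93.7% of XL promoters were called. The share there was 92.6% of all TSCs, 92.3% of autosomal and 93.0% of XR gene promoters. In that fit 54.5% of XL promoters were called lower, against 48.3% of all TSCs, 50.7% on autosomes and 50.4% on XR. The fitted change was 2 or more on the log2(RPM + 1) scale for 357 of the called promoters and -2 or less for 289. At the extreme, 87 XL promoters were at 5 or more and 23 at -5 or less. Changes of these sizes were not counted on autosomes or XR, so they are not given as a trait of XL.

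The steepest rise was that of the promoter of FBgn0247660 at XL_group1e:6170740-6170924 on the minus strand. It was at 0 to 5.20 RPM in the first 15 windows, at 10.4 RPM at 15-16 h, 164 RPM at 19-20 h and 673 RPM at 21-22 h, and then at 124 and 113 RPM in the next 2 windows. In the last 4 libraries it was at 1310, 700, 1856 and 1995 RPM, the last its highest value. The promoter was thus at or near background through the first part of embryogenesis and strongest at its end, with a dip at 22-24 h and a smaller one at 25-26 h. On the log2(RPM + 1) scale it gained 11.20 ± 0.90 (SE; limma adjusted p = 2.27e-18). Over 10 alternatives the change lay between 7.32, with the 27-28 h library included, and 15.94, with DESeq2, and the adjusted p was at most 3.01e-09.

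The promoter of FBgn0243790 at XL_group3a:1989530-1989650 on the plus strand was next, and its course was smoother. It was at 0.381 to 2.26 RPM in the first 5 windows, 25.7 RPM at 9-10 h, 323 RPM at 14-15 h and 1343 RPM at 18-19 h. Its highest value was 2569 RPM at 22-23 h, and it was still at 1177 RPM at 28-29 h. The fitted change was 9.42 ± 0.49 (limma adjusted p = 4.12e-25, at most 1.76e-19 over 10 alternatives). A promoter of another gene, at XL_group1e:3486606-3486935, ran alongside it, with 0.381 RPM at 2-3 h, 235 RPM at 14-15 h, 2487 RPM at 22-23 h and 1121 RPM at 28-29 h, and a fitted change of 9.40. Both were thus past 200 RPM at 14-15 h, when that of FBgn0247660 was at 5.20 RPM.

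The next steepest rises were those of a pair of very narrow promoters that came on last. The one at XL_group1e:2661318-2661330, 13 bp wide, had no read in 14 libraries, stayed between 0 and 1.26 RPM up to 20 h and was at 158, 160 and 728 RPM in the last 3 libraries. The one at XL_group1e:1471088-1471102, 15 bp wide, was at 0 to 7.55 RPM up to 20 h and at 144, 270 and 289 RPM in those libraries. In both, the last 3 libraries lay above all others.

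The steepest falls took place within the first 4 h. The promoter of FBgn0249420 at XL_group1e:989072-989153 was at 345, 310 and 143 RPM in the first 3 windows, at 18.2 RPM at 3-4 h and between 0 and 8.27 RPM in every later library. Its fitted change was -7.69 ± 0.75 (limma adjusted p = 8.26e-13, at most 1.2e-08 over 10 alternatives). That of FBgn0075457 at XL_group1e:2011864-2011978 was at 205, 194 and 126 RPM in the first 3 windows, at 5.40 RPM at 3-4 h and at 0 to 6.19 RPM afterwards, with a fitted change of -7.24 ± 0.79 (limma adjusted p = 3.88e-12, at most 7.24e-09 over 10 alternatives). In both promoters the first 3 windows lay far above all later ones. The next promoters in order, at XL_group1e:3818462-3818680 and XL_group1a:7217287-7217380, had the same course, with 114 and 50.1 RPM at 2-3 h and 15.3 and 3.89 RPM at 3-4 h. The last of the 5, at XL_group1e:1967282-1967405, fell more slowly, with 239 RPM at 2-3 h, 72.5 RPM at 6-7 h and 12.0 RPM at 15-16 h.

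In RPM, the early hours held the largest group of XL peaks. The peak window, that with the highest RPM, lay at 0-5 h for 819 of the 1869 promoters (43.8%), at 5-10 h for 236 (12.6%), at 10-15 h for 231 (12.4%), at 15-20 h for 187 (10.0%) and at 20-29 h for 396 (21.2%). The last phase is longer and holds more libraries than the others, so its share cannot be set directly against theirs. On autosomes 37.4% of promoters peaked at 0-5 h and 24.5% at 20-29 h, and on XR 37.3% and 26.3%. XL minus autosomes was thus 6.42 percentage points in the first phase and -3.33 in the last, and XL minus XR was 6.51 and -5.11. The excess was concentrated at 1-2 h, where 14.2% of XL promoters peaked, against 8.79% of autosomal and 9.58% of XR promoters, while at 0-1 h the shares were 8.88%, 8.92% and 9.21%. Shares of peaks also differed between neighbouring libraries of unlike depth, often with more peaks in the shallower one. The 5-6 h library, with 1399705 reads, held 4.71% of XL peaks, and the 6-7 h library, with 8853725 reads, held 0.910%. The 25-26 h library, with 723775 reads, held 4.55%, and the deeper libraries of 24-25 h and 26-27 h held 1.55% each. Other neighbours went the other way, with 1.07% at 21-22 h (920265 reads) and 5.78% at 22-23 h (1440146 reads). The part of depth in the peak window was not tested. With every library thinned to the size of the smallest used, the shares at 0-5 h were 44.2% on XL, 37.5% on autosomes and 37.7% on XR. With upper-quartile scaling of the libraries they were 29.3%, 22.7% and 24.4%, so the size of the early group depended on the scaling, while XL remained above both. Under that scaling the shares at 5-10 h were 27.3% on XL, 31.2% on autosomes and 26.0% on XR. The groups at 0-5 h and 5-10 h were then of nearly equal size on XL, and the small 5-10 h group held in RPM only.

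**Figure D1:**
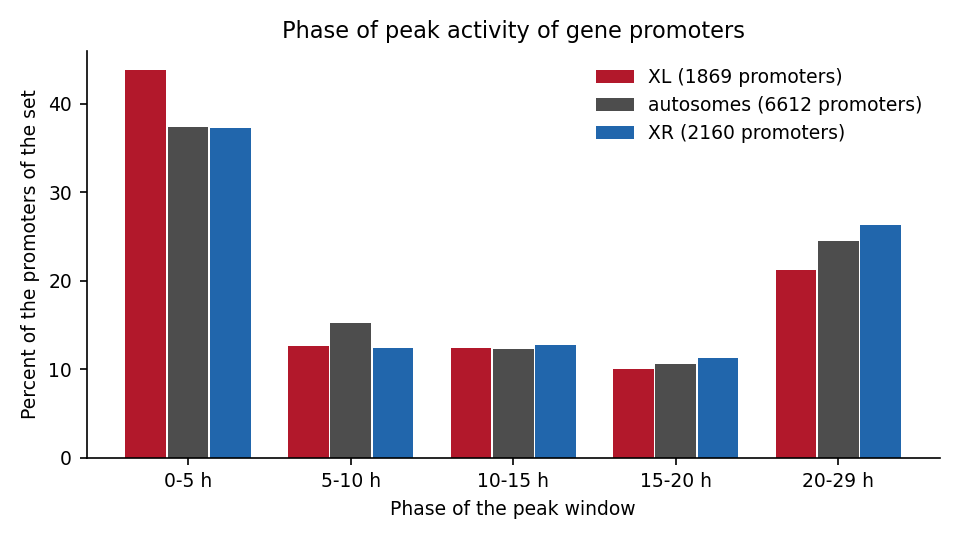
Percent of gene promoters (vertical axis) whose highest RPM fell in each phase of embryogenesis (horizontal axis, hours after egg laying), for XL (red), the autosomes (grey) and XR (blue), among promoters with a maximum of at least 10 RPM. XL has the highest bar at 0-5 h (43.8%) and the lowest at 20-29 h (21.2%).

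Promoters that peaked early on XL mostly kept a detectable level of RNA. Maternal RNA that persisted and continued transcription cannot be told apart here. Those that peaked at 0-5 h were at 10 RPM or more in a median of 23 windows, and 282 of the 819 (34.4%) were so in all 28 libraries. Their median level, in percent of each promoter's own maximum, was 88.6% at 1-2 h and 34.6% at 4-5 h. It had its low point of 15.5% at 21-22 h, and reached 30.9% again in the last library. The course of this group had a steep decline in the first 5 h, a long plateau, a minimum after 20 h and a partial return. An early high point and lower values later follow from choosing promoters by an early peak. The same course was not computed for autosomes or XR. Promoters that peaked at 5-10 h were also at 10 RPM or more for long, in a median of 23 windows, and those that peaked at 10-15 h in 21. Late ones were different, with a median of 10 windows for peaks at 15-20 h and 9 for peaks at 20-29 h. Of the 396 promoters that peaked at 20-29 h, 259 (65.4%) had no read in at least 1 library, whereas 189 of the 819 early ones (23.1%) did. The median peak was 70.4 RPM for promoters that peaked at 0-5 h, 65.8 RPM at 5-10 h, 47.0 RPM at 10-15 h, 47.4 RPM at 15-20 h and 41.7 RPM at 20-29 h.

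**Figure D2:**
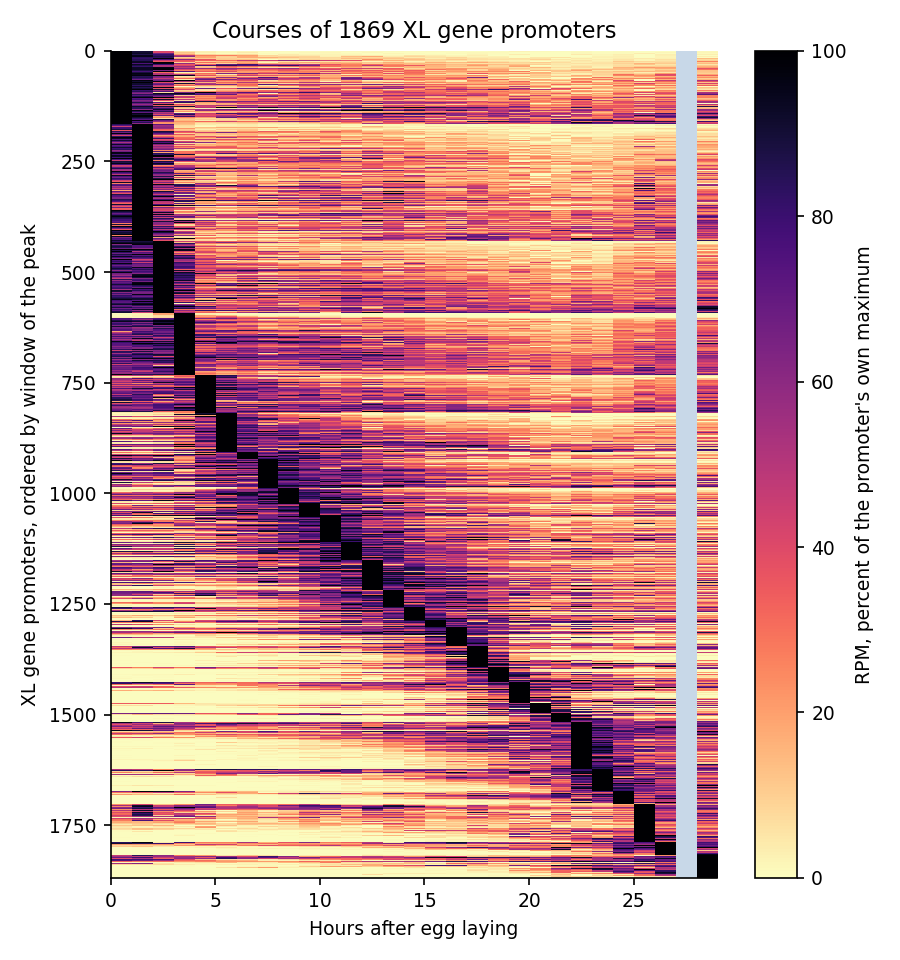
Courses of the 1869 XL gene promoters with a maximum of at least 10 RPM, 1 per row, ordered by the window of the peak from top to bottom. The horizontal axis gives hours after egg laying, the colour gives RPM in percent of the promoter's own maximum, and the pale blue column is the 27-28 h library, which was left out. The 819 promoters at the top peak before 5 h and stay at a lower level afterwards, and many rows at the bottom are near 0 for the first 10 h.

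The direction of the fitted change followed the phase of the peak, as both come from the same values. Of the 819 promoters that peaked at 0-5 h, 698 were called lower and 62 higher, with a median fitted change of -1.26. At 5-10 h the counts were 140 lower and 79 higher of 236, and at 10-15 h 100 lower and 117 higher of 231. Of the 187 that peaked at 15-20 h, 35 were called lower and 143 higher, and of the 396 that peaked at 20-29 h, 45 and 329, with a median change of 2.73.

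A return late in the series was a little more frequent on XL. Each promoter's mean over the first 5 windows and over the last 4 libraries was compared with its mean from 8-9 h to 20-21 h. Both ends were at least 2 times the middle for 104 of 1869 XL promoters (5.56%), against 3.96% of autosomal and 3.80% of XR promoters. Only the early end was for 399 (21.3%), against 18.6% and 18.0%, and only the late end for 227 (12.1%), against 14.1% and 15.2%. The middle was at least 2 times both ends for 231 (12.4%), against 12.7% and 13.1%. No test was made of these shares.

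The strongest XL promoter of the first phase, at XL_group1e:10083218-10083559, was at 5523 RPM at 0-1 h, 4858 RPM at 2-3 h and 675 RPM at 4-5 h. From 7-8 h on it stayed between 86.4 and 436 RPM, so its RNA was lowered but never absent. The second, at XL_group1a:1966515-1966661, had 4448 RPM at 2-3 h and 140 RPM at 4-5 h, a return to 989 RPM at 11-12 h and 81.8 RPM at 19-20 h. Its course thus had an early and a middle maximum. The third, at XL_group1e:10334548-10334843, instead rose over these hours, from 1396 RPM at 0-1 h to 2632 RPM at 4-5 h. It then declined, with 1207 RPM at 9-10 h and its lowest value of 318 RPM at 21-22 h.

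The strongest of all XL promoters, at XL_group1e:6592748-6593080, peaked at 8-9 h with 6926 RPM and never fell below 1495 RPM, with a median of 3644 RPM. That at XL_group1e:5714074-5714214, the strongest of those that peaked at 10-15 h, was much like it, with 441 RPM at its lowest, a median of 3070 RPM and 5650 RPM at 12-13 h. Both were high from the first window on and lower after 16 h, without a window near 0. The next promoter of each phase was also active throughout, with 156 to 3004 RPM at XL_group1e:6779226-6779448 (peak at 7-8 h) and 318 to 1072 RPM at XL_group1a:4602076-4602204 (peak at 10-11 h). The third of each phase had a sharper course. The one at XL_group3a:74026-74170 had 1969 RPM at 8-9 h but 2.11 to 6.43 RPM from 21-22 h on, and the one at XL_group1a:2492912-2493215 had 972 RPM at 12-13 h but only 1.09 RPM by 21-22 h.

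Short and intense bursts were found among promoters that peaked after 15 h. The promoter at XL_group1e:4902039-4902121 was at 0 to 6.83 RPM in the first 5 windows, 564 RPM at 15-16 h, 5790 RPM at 17-18 h and 6189 RPM at 18-19 h. It was back at 293 RPM at 20-21 h and 19.3 RPM at 23-24 h, and no window other than those at 17-19 h passed 1892 RPM. A similar burst came 2 h later at XL_group1e:3878486-3878551, with 219 RPM at 16-17 h, 2804 RPM at 20-21 h and 76.4 RPM at 22-23 h. It too was strong in few windows, with 1582, 2462 and 2804 RPM at 18-21 h and 462 RPM or less elsewhere. Other strong late promoters had broad courses, with 27.5 to 3615 RPM at XL_group3a:2378493-2378830, 340 to 1880 RPM at XL_group1a:7251097-7251535 and 507 to 2669 RPM at XL_group1e:6531549-6531853. All of these were above 10 RPM in every library used.

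**Figure D3:**
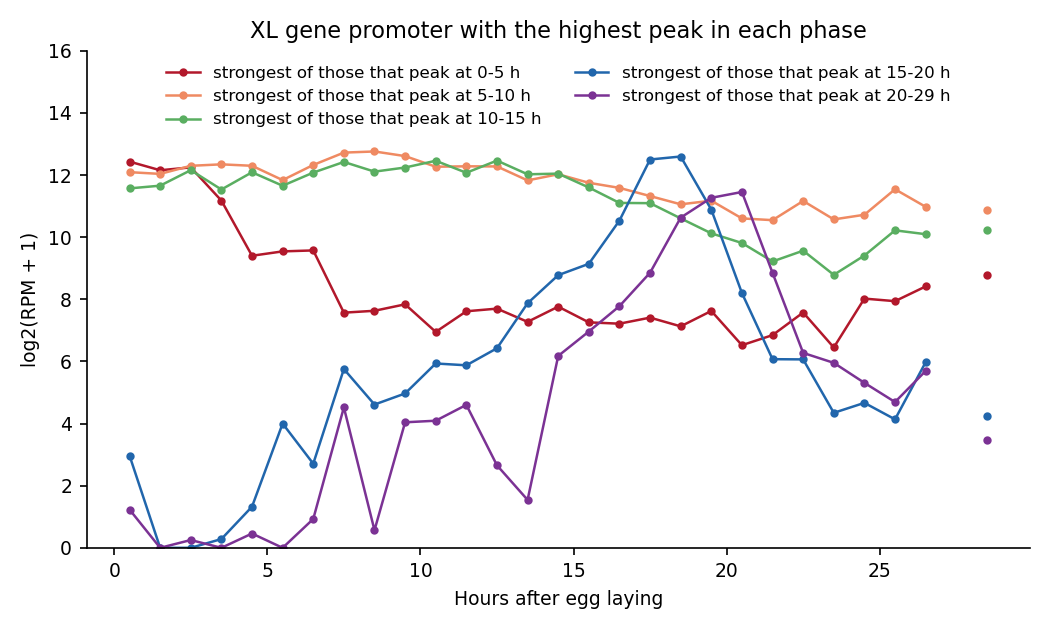
log2(RPM + 1) by hours after egg laying of the XL gene promoter with the highest peak among those that peaked in each of the 5 phases, with the 27-28 h library left out. The early, 5-10 h and 10-15 h promoters stay at 86.4 RPM or more throughout, whereas the 2 late ones start at 6.83 and 1.35 RPM and reach 6189 and 2804 RPM.

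The arm as a whole lost ground to the rest of the genome after the first hours. XL gene promoters held 15.6 to 17.8% of all RPM in the first 4 windows and 12.6% at 4-5 h. They held 13.4 to 14.3% at 10-15 h, 9.72 to 11.2% at 20-24 h and 10.7 to 12.0% in the last 4 libraries. The mean level was 52.4, 55.5, 54.3 and 48.6 RPM per promoter on XL in the first 4 windows, against 54.7, 54.0, 54.0 and 55.4 RPM on autosomes. At 4-5 h it was 39.2 RPM on XL and 59.8 RPM on autosomes. At 21-22 h, the lowest window of XL, it was 30.3 RPM, against 49.6 RPM on autosomes and 82.8 RPM on XR. XL was thus level with the autosomes through 2-3 h and below them in each later library.

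Relations with the hour were computed over the 28 libraries for 3 measures and 2 comparisons, 6 in all, with two-sided permutation tests adjusted by the Benjamini-Hochberg method. Neighbouring windows are not independent, which makes each p-value smaller than it should be by an amount that is not known. The log2 ratio of the summed RPM per promoter of XL to autosomes was lower in later windows (Spearman rho = -0.672, permutation p = 0.00011, adjusted p = 0.000165; Pearson r = -0.708, permutation p = 3e-05, adjusted p = 3.6e-05). The ratio was 0.01 at 2-3 h, -0.19 an hour later and -0.61 at 4-5 h. Its medians in the following phases were -0.51 (5-10 h), -0.33 (10-15 h), -0.52 (15-20 h), -0.69 (20-24 h) and -0.61 (after 24 h), so the drop between 3 and 5 h was partly made up and then followed by a second one. The relation rested in part on a few strong promoters. Without the 10 most abundant promoters of each chromosome group rho was -0.269 (permutation test, adjusted p = 0.167) and r was -0.374 (permutation test, adjusted p = 0.0496). These 10 held 12.4% of the RPM of XL gene promoters, against 16.5% on autosomes and 13.5% on XR.

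In the mean log2(RPM + 1), in which abundant promoters weigh less, XL began above the autosomes. The mean log2(RPM + 1) of XL minus that of autosomes was 0.13 to 0.20 in the first 4 windows, -0.05 to 0.00 at 10-15 h and -0.15 to -0.11 at 20-24 h. At 28-29 h it was 0.01, so the difference did not persist to the end (rho = -0.655, permutation p = 0.00031, adjusted p = 0.000372; r = -0.702, permutation p = 2e-05, adjusted p = 3e-05). The share of promoters at 10 RPM or more was 37.1% on XL at 1-2 h, against 35.4% on autosomes, and 32.9% at 22-23 h, against 34.9%. These windows held the extremes, 1.78 and -2.05 percentage points, and the difference was not ordered between them, with 0.25 at 0-1 h, -1.13 at 4-5 h, 0.47 at 8-9 h and 0.39 in the library of 25-26 h (relation with the hour, rho = -0.592, permutation p = 0.00129, adjusted p = 0.00129; r = -0.585, permutation p = 0.0011, adjusted p = 0.0011). With 25 RPM as the threshold this difference had no detectable relation with the hour (rho = -0.068, permutation test, adjusted p = 0.727).

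Against XR the differences were larger in the late windows and returned in part at the end. The log2 ratio of summed RPM per promoter of XL to XR was 0.10 to 0.26 in the first 4 windows, -0.27 to -0.02 at 10-15 h and -1.45 to -1.06 at 20-24 h. In the last 4 libraries it was -0.99, -0.66, -0.65 and -0.49, so the relation over all windows (rho = -0.926; r = -0.820) includes a late return. For the mean log2(RPM + 1) rho was -0.916 with r = -0.901, and for the share at 10 RPM or more rho was -0.833 with r = -0.841. For all of these the permutation p was 1e-05, the smallest the resamples can give, with adjusted p = 2e-05. The level per promoter on XL was 48.6 to 55.5 RPM in the first 4 windows and 30.3 to 34.8 RPM at 20-24 h, while that on XR was 45.2 to 47.0 RPM and 65.6 to 82.8 RPM, so both arms moved in the ratio. The median of mean log2(RPM + 1) on XR was 2.45 at 0-5 h, 2.89 at 15-20 h and 2.78 at 20-24 h. Its share at 10 RPM or more was 32.3%, 38.0% and 35.6%, so the step up after 20 h was in summed RPM only. RPM add to a fixed total per library, of which XR held 28.7% at 21-22 h, so the levels are not independent. Without the first and the last library, those farthest from the median hour, r was -0.673, -0.744 and -0.626 against autosomes and -0.846, -0.933 and -0.863 against XR, for summed RPM, mean log2(RPM + 1) and share active in that order. With libraries thinned to the smallest used, rho was -0.660, -0.608 and -0.561 against autosomes and -0.924, -0.908 and -0.839 against XR.

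**Figure D4:**
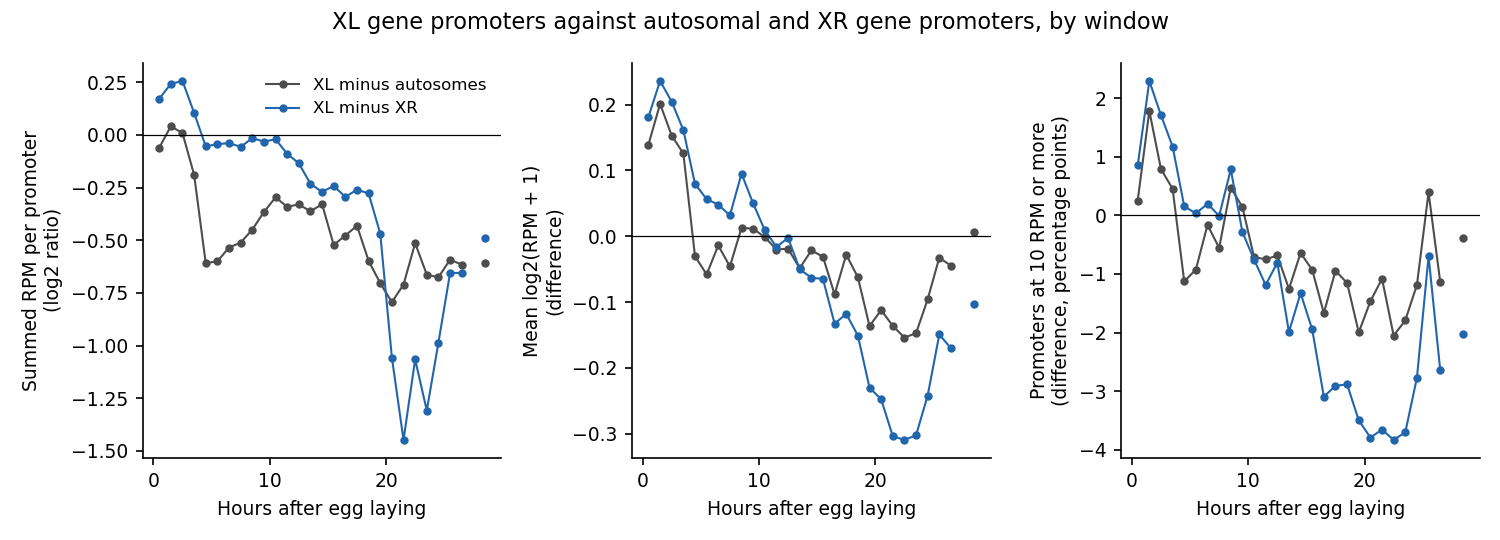
Difference between XL and autosomal (grey) or XR (blue) gene promoters in each of the 28 libraries, by hours after egg laying, for the log2 ratio of summed RPM per promoter (left), the difference in mean log2(RPM + 1) (middle) and the difference in percent of promoters at 10 RPM or more (right). Each point is 1 library, and the line is broken at the 27-28 h library. The grey line of the left panel is near 0 up to 3 h and at -0.61 at 4-5 h, and the blue line reaches -1.45 at 21-22 h.

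XL gene promoters were wider than others. Among promoters that reached 10 RPM the median width of the TSC was 104 bp on XL (quartiles 67 and 169 bp, range 1 to 762 bp), against 92 bp on autosomes (58 and 140 bp) and 91 bp on XR. The single autosomes 2, 3 and 4 had medians of 92, 93 and 92 bp. The quartiles and the median all lay higher on XL, and 372 XL promoters (19.9%) were at 200 bp or more, against 14.6% of autosomal and 14.2% of XR promoters. Under 30 bp there were 213 (11.4%) on XL, against 13.5% and 16.0%. No test was made, since promoters are not replicates.

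Width went with the time of the peak. Median width on XL was 115 bp for peaks at 0-5 h, 103.5 bp at 5-10 h, 106 bp at 10-15 h, 86 bp at 15-20 h and 78 bp at 20-29 h. For autosomal promoters the medians of these phases were 100, 96, 96.5, 75 and 62 bp, and for XR 99, 100, 97, 82 and 40.5 bp. Of the XL promoters that peaked at 0-5 h, 204 (24.9%) were 200 bp or wider and 27 (3.30%) under 30 bp. Of those that peaked at 20-29 h, 51 (12.9%) were 200 bp or wider and 122 (30.8%) under 30 bp. The excess width of XL was largest in the upper quartile of the first phase, 197.5 bp against 146 bp on autosomes and 147.75 bp on XR.

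**Figure D5:**
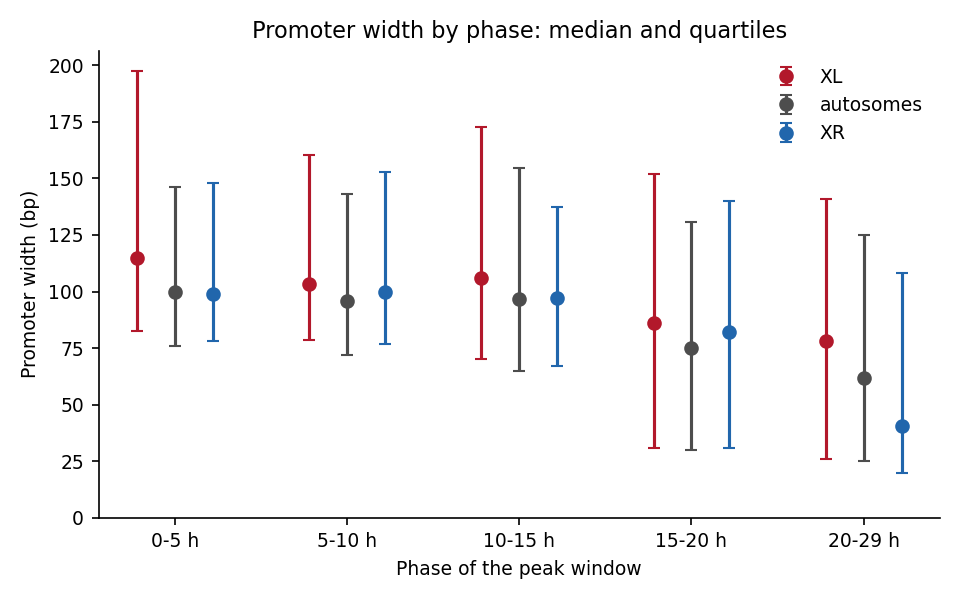
Width of gene promoters in bp (vertical axis) by the phase of the peak window (horizontal axis, hours after egg laying), for XL (red), the autosomes (grey) and XR (blue). Points are medians and bars run from the lower to the upper quartile. The XL median is 115 bp at 0-5 h and 78 bp at 20-29 h and lies above the autosomal median in each of the 5 phases.

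TSCs were called on pooled reads, and width also went with the number of reads. Across the 1869 XL promoters the rank correlation of width was 0.42 with pooled reads, 0.38 with the number of windows at 10 RPM or more and -0.23 with the peak hour, given as descriptions across promoters of the same libraries. Within bins of pooled reads the XL median was 20 bp under 200 reads, against 23 bp on autosomes. In the other bins XL was wider, with 78 and 67 bp at 200 to 1000 reads, 95 and 88 bp at 1000 to 3000, 113 and 101 bp at 3000 to 10000, 141 and 120 bp at 10000 to 30000, and 187 and 149 bp above that, XL before autosomes. The wider XL promoters were therefore seen at like depth in all but the shallowest bin, which held 77 of the 1869. Split by phase of the peak as well, XL was narrower than autosomes under 1000 reads at 10-15 h (70 against 72 bp) and 15-20 h (45 against 48 bp). In every other group of phase and reads XL was wider than autosomes. Among XL promoters with 10000 reads or more, median width was 153 bp for peaks at 0-5 h (187 promoters) and 170 bp for peaks at 20-29 h (32 promoters). Under 1000 reads it was 93.5 bp (182 promoters) and 36 bp (214 promoters). Between these bounds it was 105 bp (450 promoters) and 97 bp (150 promoters). Late XL promoters were thus narrower than early ones below 10000 reads and not above, and the part of depth in the difference was not tested.

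Narrow XL promoters were at 10 RPM or more briefly and broad ones for long. Those under 30 bp were at 10 RPM or more in a median of 4 windows, and 57.3% of them peaked at 20-29 h. The medians were 14 windows from 30 bp to under 100 bp, 23 windows from 100 bp to under 200 bp and 26 windows at 200 bp or more. In the widest class 54.8% of XL promoters peaked at 0-5 h and 13.7% at 20-29 h, whereas on autosomes 42.8% and 19.1% did, and on XR 44.1% and 20.6%. Median pooled reads per XL promoter were 395, 1689, 3930 and 4302.5 in the 4 width classes from narrow to wide.

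The widest interval with at least 100 RPM, XL_group1a:6310484-6311245, was 762 bp wide and is 1 of those listed for 2 genes. It was active in every window, at 370 to 1314 RPM with a median of 596 RPM. The next widest, XL_group1a:3348935-3349664 with 730 bp, was at 13.8 to 163 RPM and highest at 10-11 h. The narrowest, both of 11 bp, had the opposite course. XL_group1e:3362357-3362367 had no read in 14 libraries and was at 184, 194 and 176 RPM in the last 3, and XL_group1a:3126988-3126998 was at 7.79 RPM or less up to 20 h and reached 141 RPM at 23-24 h. The third narrowest was the promoter of 13 bp described above.

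By definitions taken from the study, a housekeeping promoter reaches 10 RPM with a maximum under 5 times its minimum, and a regulated one has at least 60% of its summed RPM within 8 consecutive windows. On XL 159 of 1869 promoters (8.51%; 95% Wilson interval 7.33 to 9.86%, counting error only) were housekeeping, against 9.06% on autosomes and 8.98% on XR. With the 27-28 h library, in which a single read is worth 989 RPM, 10 XL promoters (0.535%) would be so. Regulated promoters numbered 560 on XL (29.96%; 27.9 to 32.1%), against 35.8% on autosomes and 36.4% on XR. The lower share of regulated promoters on XL was found in the definition given and in all 7 alternatives to it. Regulated XL promoters had a median width of 71 bp (844.5 pooled reads) and housekeeping ones 125 bp (11169 pooled reads). The median widths of regulated promoters were 59 bp on autosomes and 44.5 bp on XR. Of the 560, 228 (40.7%) peaked at 20-29 h, against 43.2% on autosomes and 51.5% on XR, and 127 (22.7%) at 0-5 h, against 18.9% and 15.6%.

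Promoters of the same XL gene ranged from opposite to nearly identical courses. Over 801 pairs from 325 genes, both at 10 RPM or more, the median Pearson correlation of RPM across the 28 libraries was 0.507 (quartiles 0.114 and 0.742), against 0.491 for autosomal and 0.465 for XR pairs. It was under 0 in 154 pairs (19.2%), against 21.5% and 23.7%, and 0.8 or more in 140 (17.5%), against 17.1% and 17.1%. In 349 pairs (43.6%) the peaks were 5 h or more apart, against 42.9% of autosomal and 47.8% of XR pairs. In those, the earlier promoter was the wider one in 196 (56.2%), against 54.6% and 60.5%. The pairs share genes and libraries, so these values are descriptions.

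The lowest correlation among XL pairs, -0.731, was between promoters 11540 bp apart. The first, XL_group1a:1159695-1159939, was at 4.64 RPM at 0-1 h and 254 RPM at 22-23 h, and the second, XL_group1a:1147999-1148155, at 11.8 RPM at 0-1 h, 19.6 RPM at 4-5 h and 1.39 RPM at 22-23 h. In the next pair, with -0.691, XL_group1e:4047753-4047908 was at 676 RPM at 4-5 h and 1.21 RPM at 23-24 h, while XL_group1e:4062207-4062304 was at 0 RPM at 4-5 h and 79.4 RPM at 23-24 h. At this gene the first promoter was thus strong from 3-4 h to 11-12 h, and the second came on as it declined. The third pair, with -0.690, lay 1005 bp apart, XL_group1e:6079110-6079178 with 93.0 RPM at 3-4 h and 16.9 RPM at 23-24 h and XL_group1e:6077966-6078105 with 1.30 and 29.0 RPM in those windows. The 3 highest correlations were 0.996, 0.995 and 0.994, at distances of 761, 2670 and 254 bp. Of these, the first and the third pair were highest at 1-2 h and at less than 0.2 of that from 3-4 h on, and the second, at XL_group1a:5820927-5821244 and XL_group1a:5818228-5818257, had a burst of 185 and 150 RPM at 18-19 h and 161 and 145 RPM an hour later.

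Shares of peaks were also taken along the arm. The 4 scaffolds XL_group1a, XL_group1e, XL_group3a and XL_group3b held 1212, 1644, 286 and 62 of the promoters, and the share that peaked at 0-5 h was 43.3%, 45.2%, 38.3% and 38.9%. Median widths there were 103, 104, 105.5 and 100 bp. Over 26 stretches of 1 Mb with at least 20 promoters the early share ran from 26.6% to 55.3% with a median of 43.5%, and the share that peaked at 20-29 h from 9.09% to 33.3% with a median of 20.9%. The stretches held 29 to 143 promoters (median 68.5), so these ranges include counting error. Such ranges were not computed for autosomes or XR, and whether courses varied along the arm was not tested. With 1 promoter per gene, neighbouring XL genes had a median correlation of log2(RPM + 1) of 0.17 (1351 pairs), and genes 10 positions apart of 0.06. For autosomes these medians were 0.17 and 0.04, and for XR 0.21 and 0.02. Among direct neighbours on XL, those head to head with start sites under 1 kb apart had a median of 0.30 (182 pairs), while those head to head but farther apart had 0.14 (209 pairs) and those on the same strand 1 kb or more apart 0.13 (564 pairs). A correlation of 0.8 or more was found in 5.92% of neighbouring XL pairs, against 7.33% on autosomes and 9.97% on XR.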

How the data were processed

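The authors aligned RAMPAGE reads with STAR (version not given in the sources used here) to the D. pseudoobscura r2.9 genome, called TSCs on the reads of all windows together, removed those over ribosomal DNA repeats and assigned them to genes through paired reads. Libraries were barcoded and pooled before sequencing. The deposited values are RPM over TSCs. The deposited intervals carry a score whose meaning is not stated and which was not used. The gene tables of the series, one of them smoothed and rescaled, were not used. Whole reads were recovered from RPM (100% of nonzero values within 0.1 of a whole number), with 723775 to 11862896 reads per library, and intervals cover counting error only. On those reads edgeR 4.0.16 (quasi-likelihood test, TMM) called 2056 of 2368 XL gene promoters tested (86.8%, against 87.9% of all TSCs). DESeq2 1.42.0 called 2335 of 3139 (74.4%, against 72.4% of all TSCs).

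For time-dependence, limma 3.58.1 (run in R 4.3.3) was fitted to log2(RPM + 1), with a natural cubic spline of 5 degrees of freedom, the trend option, a maximum of at least 1 RPM and Benjamini-Hochberg adjustment over all TSCs. The error is the scatter of single libraries around a smooth course, and changes on this scale are understated for low promoters. The limma and edgeR fits were also run on simulated counts in which few TSCs changed with the hour. Most TSCs were called in the real data, so no conclusion is drawn from that run. Relations with the hour were tested with 100000 permutations (Python 3, SciPy). Peaks, widths, classes and pairs used a maximum of at least 10 RPM. Promoters named are the 5 steepest rises and falls, the 3 highest per phase, the 3 widest and narrowest with at least 100 RPM, and the 3 lowest and highest correlated pairs of a gene. A further list of genes by symbol, and a search for sequence motifs, were not run, since identifiers could not be matched to names or sequences. Members, lists and tests were chosen with earlier results of these data known.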

Additional observations from a re-analysis of the deposited data

Results flagged for a closer look

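All 6 relations between XL and the other chromosomes changed with the hour by a test of the difference itself. Spearman's rho was -0.672 for summed RPM, -0.655 for mean log2(RPM + 1) and -0.592 for the share at 10 RPM or more against autosomes, and -0.926, -0.916 and -0.833 for these measures against XR. Signal also lay outside the gene promoters. The 1633 TSCs on XL assigned to no gene, 33.8% of the 4837 TSCs of the arm, held 6.59% of its RPM, or 957677 reads, where a count of 0 allows 3 reads. Their median width was 22 bp, and 335 of them reached 10 RPM.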

How the results depend on the processing

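No paired analysis was possible because each window had 1 library. Thinning of libraries and the bins of pooled reads were chosen after seeing the data. Time-dependent XL promoters numbered between 1752 of 1869 tested (93.7%, against 92.6% of all TSCs) and 2597 of 3204 (81.1%, against 77.9%) over 10 alternatives. The lowest share, 72.6% against 73.0% of all TSCs, was that with all 29 libraries. The counts thus followed in part the number tested. The relation with autosomes was lost for the share active at 25 RPM (rho = -0.068). For summed RPM without the 10 most abundant promoters it was lost by rho (-0.269) and weaker by r (-0.374, permutation test, adjusted p = 0.0496). The other alternatives to the 6 relations left direction and call as they were. The share of XL peaks at 0-5 h was 46.5% after smoothing, 46.2% with a minimum of 25 RPM, 36.67% with 1 RPM and 29.26% with upper-quartile scaling. That at 20-29 h was 24.33% with all 29 libraries, 18.97% after smoothing, 18.55% with 25 RPM, 24.47% with 1 RPM and 17.96% with upper-quartile scaling. Median XL width was 71 bp without a filter and 112 bp with 25 RPM. The housekeeping share was 0.5348% with all 29 libraries, 10.14% in the first 24 windows, 26.86% with 10-fold, 11.1% with 25 RPM, 27.59% after smoothing and 6.065% after thinning. The regulated share was 38.36% in the first 24 windows, 13.43% with 80% of the sum, 42.48% with 10 windows and 27.42% with 25 RPM. The median correlation of promoters of a gene was 0.5908 with 25 RPM. Stricter thresholds move shares by construction, and for the rest the cause was not tested. The motif search and its settings were not run. Reads per library limit low promoters most in the shallowest libraries.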

Other observations

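Close promoters on opposite strands were rarely very alike, on XL as on autosomes and XR. The XL share below rests on very few pairs. Of 182 neighbouring XL gene pairs head to head with starts under 1 kb apart, 1.65% had a correlation of 0.8 or more, against 5.65% of autosomal and 6.41% of XR pairs, although the median correlation was 0.304 on XL, 0.306 on autosomes and 0.316 on XR. Farther apart, head-to-head pairs reached 0.8 in 9.09% on XL, 7.74% on autosomes and 12.4% on XR. On XL the stretch with the smallest share of early peaks was XL_group1e from 4 to 5 Mb, with 17 of 64 promoters, and that with the largest was XL_group1e from 10 to 11 Mb, with 47 of 85. These are descriptions across promoters, picked after the values were seen, with no test.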
